A study of Mus musculus with 11 samples.

Results

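The 10 genes Tnfrsf11a, Oscar, Nfatc1, Dcstamp, Ocstamp, Atp6v0d2, Car2, Acp5, Ctsk and Mmp9, which carry macrophage precursors towards bone-resorbing osteoclasts, were followed in mouse RAW cells, a macrophage-type line. They were taken by symbol from a table of 52143 genes, and all 10 had a row. The genes were selected on their measured levels in unstimulated shGIV and shC cells, so that their differences between hairpins without LPS are given here as a description with no test. Changes under LPS share those unstimulated libraries, and their p-values are therefore not independent of the selection. The study asked how Girdin (GIV), the protein of the gene Ccdc88a, shapes the answer of macrophages to lipopolysaccharide (LPS), a molecule of the outer membrane of bacteria that signals through Toll-like receptor 4. The groups used were 3 libraries of cells with a short hairpin RNA against GIV (shGIV) after 5 h of LPS at 100 ng/ml, 1 library of cells with a control hairpin (shC) after the same LPS, 3 libraries of shGIV cells without LPS (0 h), and 3 libraries of shC cells without LPS. Every cell carried a hairpin, and LPS is the only agent that the labels name. A further sample of shC cells with LPS, replicate 3, is named in the labels but has no levels among the deposited values, and was not analysed here. Levels are in TPM, the number of transcripts of a gene per 1000000 transcripts, which takes gene length into account. Nothing in the labels says that replicates came from separate cultures, and p-values therefore measure the spread between these libraries, which may be technical.

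Osteoclasts are large cells with many nuclei that form when cells of the monocyte and macrophage lineage fuse and begin to dissolve bone. The ligand RANKL binds its receptor RANK on the precursor, and signals through TRAF6, NF-kB and c-Fos raise NFATc1, the transcription factor that switches on genes of fusion, acid secretion and matrix digestion. RAW cells are widely used as osteoclast precursors because they fuse and resorb when RANKL is added, whereas LPS is a known modulator of osteoclast formation that acts differently on early and on committed precursors.

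Of the 10 libraries, replicate 2 of the shC cells without LPS stood apart, and it is left out of all group values and tests unless it is named. The microRNA gene Mir6236 made up 57.8% of TPM there and 3.79% to 8.78% elsewhere, and protein-coding genes made up 7.80% there and 73.9% to 81.5% elsewhere. Summed over the 10 osteoclast genes, this library held 39.4 TPM, and the other shC libraries without LPS held 235 and 245 TPM. Ccdc88a was at 3.08, 2.62 and 3.39 TPM in shGIV cells with LPS and at 5.77 TPM in shC cells with LPS. Without LPS its levels were 6.93, 5.31 and 5.58 TPM in shGIV cells and 10.0 and 7.69 TPM in shC cells. The shGIV libraries were lower at both times, but the difference did not pass the test (log2 difference −0.75 ± 0.19, limma adjusted p = 0.0681 with LPS; −0.50 ± 0.15, adjusted p = 0.232 without). Of 8 macrophage markers, 7 were detected at over 1 TPM in every one of the 9 libraries, and Mertk reached 0.0700 TPM at most. Their summed level was 11786 to 12341 TPM in shGIV cells with LPS, 14165 TPM in shC cells with LPS, 17686 to 18246 TPM in shGIV cells without LPS and 18921 to 19322 TPM in shC cells without LPS. Over the 9 libraries Lyz2 alone ranged from 7974 to 15913 TPM, whereas Csf1r ranged from 41.8 to 541 TPM and Fcgr1 from 6.37 to 240 TPM. Markers of osteoblasts and stromal cells summed to at most 4.67 TPM, those of T and B cells to at most 1.05 TPM and those of epithelial cells to at most 0.132 TPM. The 6 neutrophil markers summed to 13.4 to 17.6 TPM in shGIV cells with LPS, to 16.7 TPM in shC cells with LPS and to at most 3.95 TPM in either line without LPS, and of these S100a8 alone reached 17.3 TPM, while S100a9 was listed at 0 in all 9 libraries. The part of these marker levels in the results was not tested.

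The RefSeq table of start sites (GRCm38.p6) held windows for 4 of the 10 genes, each running from 250 bases before to 50 bases after an annotated start. The windows shown belong to a gene that was higher in shGIV cells at both times (Acp5, its most downstream start), a gene that was lower in shGIV cells with LPS (Ctsk) and a gene with no called difference between hairpins (Tnfrsf11a). Each is written 5′ to 3′ on the gene's strand, with capitals for matches to the core bound by NFAT proteins (GGAAA) or to the M-box bound by MITF and its relatives (TCATGTG), on either strand.
Acp5, chr9:22130549-22130848, minus strand: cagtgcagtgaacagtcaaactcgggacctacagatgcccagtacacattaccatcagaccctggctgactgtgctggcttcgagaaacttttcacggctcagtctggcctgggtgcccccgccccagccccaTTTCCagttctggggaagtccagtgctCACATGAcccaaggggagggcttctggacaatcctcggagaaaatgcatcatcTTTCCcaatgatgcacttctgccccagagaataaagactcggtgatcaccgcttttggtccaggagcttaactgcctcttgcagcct
Ctsk, chr3:95498960-95499259, plus strand: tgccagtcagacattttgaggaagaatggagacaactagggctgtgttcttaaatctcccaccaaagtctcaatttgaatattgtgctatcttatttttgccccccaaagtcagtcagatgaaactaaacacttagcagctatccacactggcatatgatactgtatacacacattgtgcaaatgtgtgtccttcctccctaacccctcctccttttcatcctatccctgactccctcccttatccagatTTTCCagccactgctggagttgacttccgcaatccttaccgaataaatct
Tnfrsf11a, chr1:105780473-105780772, plus strand: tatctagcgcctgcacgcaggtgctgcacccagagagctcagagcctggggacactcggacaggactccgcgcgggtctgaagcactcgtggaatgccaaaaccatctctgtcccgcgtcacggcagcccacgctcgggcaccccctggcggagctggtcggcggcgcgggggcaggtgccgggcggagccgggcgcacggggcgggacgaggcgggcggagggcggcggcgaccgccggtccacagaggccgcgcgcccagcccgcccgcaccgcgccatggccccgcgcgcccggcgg
The Acp5 window held the M-box letters on the reverse strand, beginning 90 bases before the start, and the NFAT core on the reverse strand, beginning 117 and 37 bases before it. The Ctsk window held 1 NFAT core on the reverse strand, at the start itself, and the Tnfrsf11a window held neither motif. Among the windows not shown, those at the other Acp5 starts each held 1 NFAT core and no M-box. The window of Oscar, a gene close to 0 TPM, held 4 NFAT cores and no M-box. The M-box is found in 3.77% and the NFAT core in 61.3% of 32851 such windows. The AP-1 motif TGANTCA, present in 7.81% of all windows, was in none of the 6 windows of the 4 genes. Motifs did not overlap in the windows shown, and a missing match says only that these letters are not there.

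**Figure D1:**
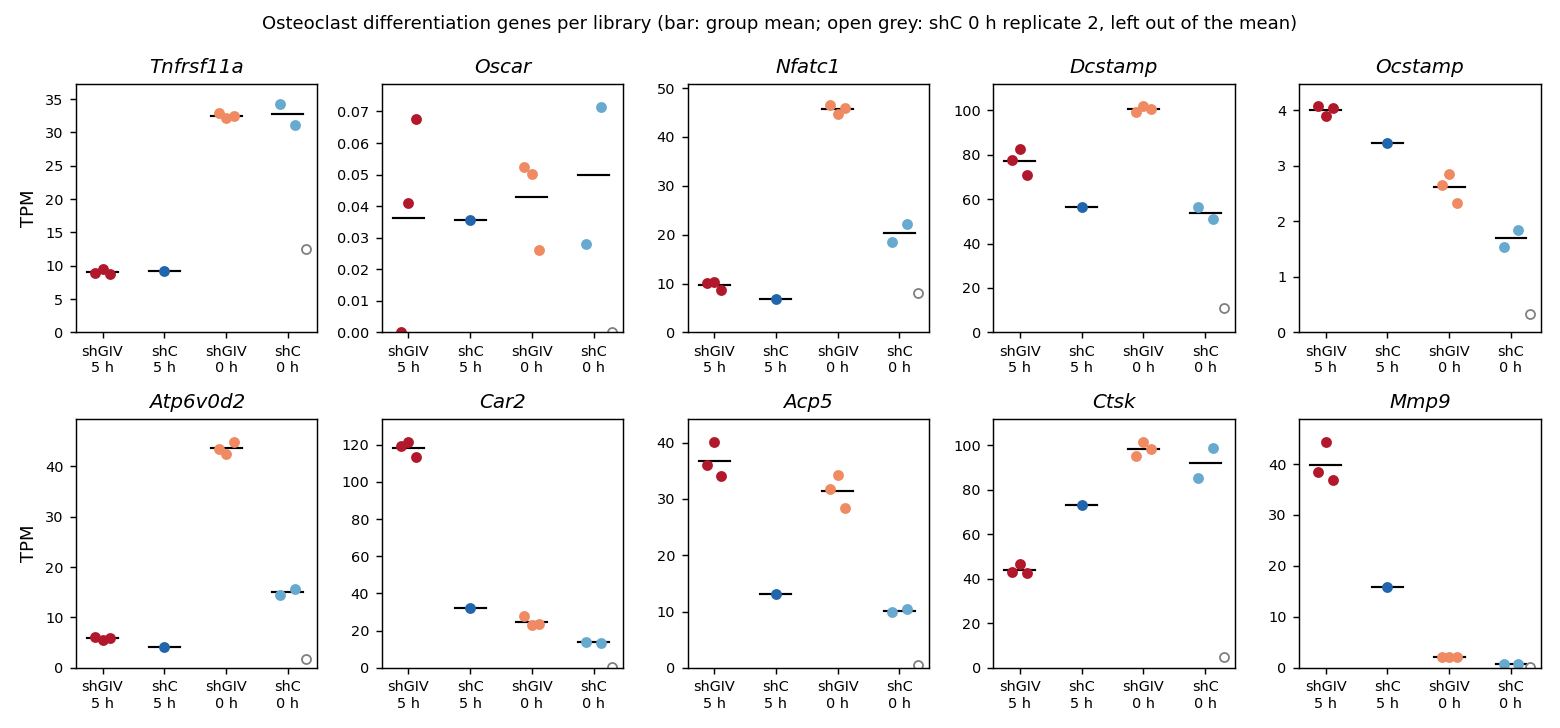
TPM of the 10 osteoclast genes in each library, by hairpin and hours of LPS; filled points are libraries, the bar is the group mean, and the open grey point is replicate 2 of shC cells without LPS, left out of the mean. Car2 and Mmp9 were highest in shGIV cells with LPS, whereas Nfatc1 and Atp6v0d2 were highest in shGIV cells without LPS, and the Oscar axis ends below 0.1 TPM.

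The gene of the receptor that starts the program, Tnfrsf11a (chr1:105780718-105847981, plus strand), which encodes RANK, stood at overlapping levels in the lines and fell under LPS in both. It was at 8.91, 9.54 and 8.83 TPM in shGIV cells with LPS and at 9.21 TPM in shC cells with LPS. Unstimulated cells held 33.0, 32.2 and 32.5 TPM in the shGIV line and 34.3 and 31.1 TPM in the shC line. At each time the libraries of the lines overlapped, while every library with LPS was far below every library without. With LPS the log2 difference shGIV minus shC was −0.02 ± 0.09 (adjusted p = 0.94), and its sign turned under TMM scaling (0.12) and quantile normalization (0.13). LPS lowered Tnfrsf11a to 28.0% of its level in shGIV cells and to 28.2% in shC cells (log2 −1.73 ± 0.06 and −1.72 ± 0.09, adjusted p = 1.43e-07 and 3.9e-06). Under TMM scaling these falls were smaller, at log2 −1.11 in shGIV and −1.25 in shC cells. In bulk RNA, fewer cells that express a gene and less RNA per cell cannot be told apart. The ligand gene Tnfsf11 (RANKL) and the decoy receptor gene Tnfrsf11b (osteoprotegerin) were listed at 0 in all 10 libraries.

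Oscar (chr7:3609813-3616157, minus strand), an immunoglobulin-like receptor that pairs with the FcR gamma chain and adds the calcium signal that NFATc1 needs, was close to 0 throughout. Its highest level in the 9 libraries was 0.0715 TPM, in replicate 3 of shC cells without LPS, and it was listed at 0 in replicate 1 of shGIV cells with LPS. It is the 1 gene of the 10 below the filter on low values and entered no test.

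Nfatc1 (chr18:80606205-80713071, minus strand), the master transcription factor of the lineage, was highest in unstimulated shGIV cells. It was at 10.1, 10.3 and 8.73 TPM in shGIV cells with LPS and at 6.81 TPM in shC cells with LPS. Its level was 46.5, 44.6 and 45.8 TPM in shGIV cells without LPS, against 18.45 and 22.3 TPM in shC cells without LPS. The lines did not overlap at either time, and the distance between them was larger without LPS. The ratio of mean TPM, shGIV over shC, was 2.24 without LPS and 1.43 with LPS. The difference with LPS did not pass the test on the deposited scale (log2 0.45 ± 0.13, adjusted p = 0.0844), but it did under TMM scaling (adjusted p = 0.0141) and quantile normalization (adjusted p = 0.0198). LPS lowered Nfatc1 to 21.3% of its level in shGIV cells and to 33.4% in shC cells (log2 −2.13 ± 0.09 and −1.45 ± 0.13, adjusted p = 3.32e-07 and 6.02e-05). Under TMM scaling these falls were smaller, at log2 −1.50 and −0.99.

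The fusion genes encode membrane proteins that precursors need to merge. Dcstamp (chr15:39745930-39760938, plus strand) was at 77.6, 82.6 and 71.0 TPM in shGIV cells with LPS and at 56.6 TPM in shC cells with LPS. In unstimulated cells it stood at 99.1, 102 and 100.6 TPM with the GIV hairpin, against 56.6 and 51.0 TPM with the control hairpin. Every shGIV library was above every shC library of its time. Ocstamp (chr2:165393760-165400405, minus strand) was far lower in level, at 4.08, 3.89 and 4.05 TPM in shGIV cells with LPS and at 3.41 TPM in shC cells with LPS. Levels without LPS were 2.65, 2.85 and 2.33 TPM in shGIV cells, against 1.54 and 1.85 TPM in shC cells. With LPS, Dcstamp was 1.36 times as high in shGIV as in shC cells by mean TPM (log2 0.44 ± 0.10, adjusted p = 0.049), whereas the difference of Ocstamp did not pass (0.18 ± 0.14, adjusted p = 0.505). Both genes were higher in shGIV than in shC cells without LPS, by 1.87 and 1.54 times. Under LPS, Ocstamp rose in shGIV cells (log2 0.47 ± 0.10, adjusted p = 0.00303) and in shC cells (0.71 ± 0.15, adjusted p = 0.00466). The call of Ocstamp in shC cells was lost with only the groups compared in the fit. Dcstamp fell in shGIV cells (−0.38 ± 0.07, adjusted p = 0.00125; 0.28 under TMM scaling, adjusted p = 0.0138), and its change in shC cells was 0.07 ± 0.10 (adjusted p = 0.569; 0.56 under TMM scaling, adjusted p = 0.00471).

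Acid is secreted onto bone by a vacuolar proton pump fed by carbonic anhydrase. The subunit gene Atp6v0d2 and the anhydrase gene Car2 answered LPS in opposite directions. Other subunit genes went either way in shGIV cells, such as Atp6v1e1 (log2 0.51 ± 0.05) and Atp6v1a (−1.13 ± 0.08). Atp6v0d2 (chr4:19876841-19922605, minus strand) encodes the d2 subunit of the pump, which is also needed for fusion. It was at 6.05, 5.61 and 5.89 TPM in shGIV cells with LPS and at 4.06 TPM in shC cells with LPS. Unstimulated shGIV cells had 43.4, 42.4 and 44.9 TPM, against 14.5 and 15.6 TPM in unstimulated shC cells. It was higher in shGIV cells at both times, by 1.44 times with LPS (log2 0.44 ± 0.09, adjusted p = 0.0318) and by 2.90 times without. LPS lowered it to 13.4% in shGIV cells and to 27.0% in shC cells (log2 −2.70 ± 0.06 and −1.66 ± 0.09, adjusted p = 1.64e-08 and 4.42e-06). These p-values rest on unstimulated libraries that entered the choice of the gene, and are not independent of it. Under TMM scaling the log2 changes of Atp6v0d2 were smaller, at −2.09 in shGIV and −1.22 in shC cells. Car2 (chr3:14886273-14900770, plus strand) encodes carbonic anhydrase II, which makes the protons. Its levels were 119.5, 121 and 114 TPM in shGIV cells with LPS and 32.0 TPM in shC cells with LPS. Without LPS they were 28.0, 22.9 and 23.7 TPM in shGIV cells, against 14.1 and 13.5 TPM in shC cells. Every shGIV library with LPS was above every other library. Car2 was 3.69 times as high in shGIV as in shC cells with LPS (log2 1.85 ± 0.11, adjusted p = 0.000682) and 1.80 times as high without. LPS raised it 4.75 times in shGIV cells and 2.32 times in shC cells (log2 2.21 ± 0.08 and 1.16 ± 0.12, adjusted p = 1.56e-07 and 0.00011).

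Of the enzymes that digest the matrix, Acp5 (chr9:22126727-22135711, minus strand) encodes tartrate-resistant acid phosphatase, the classic stain of osteoclasts. It was at 36.1, 40.1 and 34.0 TPM in shGIV cells with LPS and at 13.2 TPM in shC cells with LPS. With no LPS, shGIV cells had 31.9, 34.3 and 28.4 TPM, against 9.89 and 10.4 TPM in shC cells. All 6 shGIV libraries were above all shC libraries, at either time. The ratio of mean TPM, shGIV over shC, was 2.79 with LPS (log2 1.41 ± 0.13, adjusted p = 0.00268) and 3.11 without. The change of Acp5 under LPS did not pass the test on the deposited scale, at log2 0.22 ± 0.09 in shGIV cells (adjusted p = 0.0568) and 0.35 ± 0.13 in shC cells (adjusted p = 0.0558). In shGIV cells it passed without shGIV replicate 2 at 0 h or replicate 3 at 5 h (adjusted p = 0.0421 at most), and in shC cells without shGIV replicate 3 at 0 h or replicate 2 at 5 h (0.0473 at most). Under TMM scaling and quantile normalization both changes passed the test, with log2 0.87 and 0.61 in shGIV cells and 0.80 and 0.81 in shC cells. The annotation places a gene on the other strand within Acp5, 6530413G14Rik, which reached 0.486 TPM at most.

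Ctsk (chr3:95499256-95509362, plus strand) encodes cathepsin K, the protease that cleaves bone collagen, and it went the other way. It was at 42.9, 46.5 and 42.4 TPM in shGIV cells with LPS and at 72.9 TPM in shC cells with LPS. Before LPS, at 0 h, Ctsk was at 95.0, 102 and 98.3 TPM in shGIV cells and at 85.2 and 98.8 TPM in shC cells. The lines overlapped without LPS, and with LPS all shGIV libraries were below the shC library. With LPS its mean in shGIV cells was 60.2% of the level in shC cells (log2 −0.72 ± 0.10, adjusted p = 0.0108). LPS lowered it to 44.7% in shGIV cells (log2 −1.15 ± 0.07, adjusted p = 2.59e-06) and to 79.3% in shC cells (−0.33 ± 0.11, adjusted p = 0.0299). Under TMM scaling the log2 change in shGIV cells was smaller, at −0.49. The call in shC cells was lost without replicate 3 of shC cells without LPS (adjusted p = 0.0885), and the sign turned under TMM scaling (0.16, adjusted p = 0.124).

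Mmp9 (chr2:164940780-164955850, plus strand) encodes gelatinase B, a matrix metalloprotease that osteoclasts secrete. It was at 38.5, 44.3 and 36.9 TPM in shGIV cells with LPS and at 15.9 TPM in shC cells with LPS. Levels at 0 h were 2.11, 2.09 and 2.09 TPM in shGIV cells, against 0.664 and 0.686 TPM in shC cells. The 4 groups were fully apart, and it was the gene of the 10 with the largest rise under LPS in both lines. LPS raised it 19.0 times in shGIV cells and 23.5 times in shC cells by mean TPM (log2 of TPM + 1, 3.72 ± 0.08 and 3.33 ± 0.13, adjusted p = 1.62e-08 and 6.7e-07). The lines come in the other order on the log scale, where the added 1 TPM is larger than the level in unstimulated shC cells. Mmp9 was under the filter on low values in those cells and was tested through its level in the other groups. With LPS, Mmp9 was 2.51 times as high in shGIV as in shC cells (log2 1.27 ± 0.12, adjusted p = 0.003), and without LPS it was 3.10 times as high.

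Set side by side in stimulated cells, 5 of the 9 tested genes were called higher in shGIV than in shC cells. These were Car2, Acp5, Mmp9, Dcstamp and Atp6v0d2, and Ctsk was called lower. The genes were chosen with earlier results of these data known, mostly of the lines without LPS. A gene chosen for a difference without LPS can keep it with LPS, so these calls are not independent of the choice. The spread behind them is also estimated over all 4 groups, unstimulated libraries included. With only the stimulated libraries in the fit, 3 of the 9 genes were called, all higher (Car2, Acp5 and Mmp9). Over all 13711 tested genes, 0.89% were called higher and 4.38% lower (122 and 600 genes; 327 and 397 under TMM scaling). A call means an adjusted p below 0.05. The median log2 difference was 0.44 over the 9 osteoclast genes and −0.12 over all genes tested. In 7 of the 9 genes the shGIV libraries were all above the shC library and in 1 all below it, which held for 15.8% and 48.7% of all genes. Car2, Acp5 and Mmp9 stayed called under every other setting of the 9-library fit, with adjusted p of at most 0.021, 0.033 and 0.042. Atp6v0d2 and Dcstamp lost their calls when any of the 6 shGIV libraries was left out (adjusted p 0.0511 to 0.0784 and 0.051 to 0.097), and TMM scaling or quantile normalization added Nfatc1. The call of Ctsk was lost with only the stimulated libraries in the fit (adjusted p = 0.0604) and under a replicate block (adjusted p = 0.063). The shC cells with LPS are 1 library, whose spread was taken to equal that of the other groups. With the library that stands apart in the fit 0 of the 9 genes passed limma's test (1 at an unadjusted p below 0.05), as did 0 of 13919 genes (221 at an unadjusted p below 0.05).

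**Figure D2:**
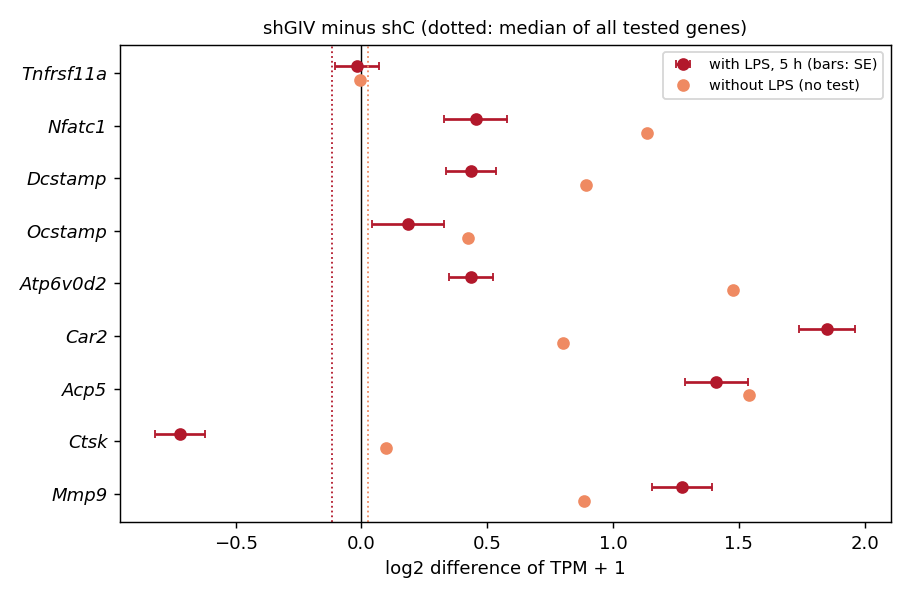
Log2 difference of TPM + 1, shGIV minus shC, of the 9 tested osteoclast genes with LPS (dark red, bars are standard errors) and without LPS (orange, shown as a description); dotted lines are the medians of all tested genes. Car2 (1.85), Acp5 (1.41) and Mmp9 (1.27) lay farthest to the right with LPS, Ctsk (−0.72) lay to the left, and Tnfrsf11a lay near 0 in both (−0.02 and −0.01).

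Without LPS the estimates, which entered the choice of genes, were above 0 in 8 of the 9 genes and ran from −0.01 for Tnfrsf11a and 0.10 for Ctsk to 1.48 for Atp6v0d2 and 1.54 for Acp5. Their median was 0.89, and that of all tested genes was 0.02. The shGIV libraries lay all above the shC libraries in 7 genes and in none all below, and over all genes this was so for 15.6% and 12.7%, from which nothing is read. For Mmp9 the estimate grew to 1.50, against 0.89, when 0.1 in place of 1 TPM was added before taking logs. At the low end of the differences, Ctsk was 1.07 times and Tnfrsf11a 0.995 times its level in shC cells. With the library that stands apart in the fit, the median of the 9 genes was 1.54.

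The answers to LPS share their unstimulated libraries with the comparison that led to the choice, and are given side by side for each line. Their p-values, here and gene by gene above, are therefore not independent of that choice. In shGIV cells 3 genes rose (Mmp9, Car2 and Ocstamp) and 5 fell (Atp6v0d2, Nfatc1, Tnfrsf11a, Ctsk and Dcstamp), against 15.8% of all genes called higher and 59.7% called lower. In shC cells 3 genes rose (Mmp9, Car2 and Ocstamp) and 4 fell (Tnfrsf11a, Atp6v0d2, Nfatc1 and Ctsk), against 14.8% and 44.1% of all genes. The median change was −0.38 in shGIV and 0.07 in shC cells over the 9 genes, and −0.54 and −0.40 over all tested genes. Under TMM scaling the medians of all genes were 0.0053 and 0.0038, and the genes called higher and lower numbered 4737 and 4467 in shGIV cells and 3902 and 3422 in shC cells, against 2161 and 8188, and 2025 and 6050, on the deposited scale. Relative to the median of all genes on the deposited scale, the changes in shGIV cells ran from −2.16 (Atp6v0d2) to 4.26 (Mmp9) and in shC cells from −1.32 (Tnfrsf11a) to 3.73 (Mmp9). Under that scaling 5 of the 9 genes were called higher and 4 lower in shGIV cells, and 5 higher and 3 lower in shC cells. With the library that stands apart in the fit, 4 genes were called in shGIV cells and 1 in shC cells.

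The change under LPS in shGIV cells minus that in shC cells is also a description, since it holds the unstimulated difference with a minus sign. It was 1.05 ± 0.14 for Car2 and 0.39 ± 0.15 for Mmp9, where a pseudocount of 0.1 turned the sign (−0.18). Tnfrsf11a stood at −0.01 ± 0.11 (0.15 under TMM scaling and 0.17 under quantile normalization), Acp5 at −0.13 ± 0.16 and Ocstamp at −0.24 ± 0.18. Of the other genes that fell in both lines, it was −1.04 ± 0.11 for Atp6v0d2, −0.82 ± 0.13 for Ctsk and −0.68 ± 0.16 for Nfatc1, and it was −0.46 ± 0.13 for Dcstamp, whose change in shC cells did not pass the test. The median over the 9 genes was −0.24 and over all genes −0.15.

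**Figure D3:**
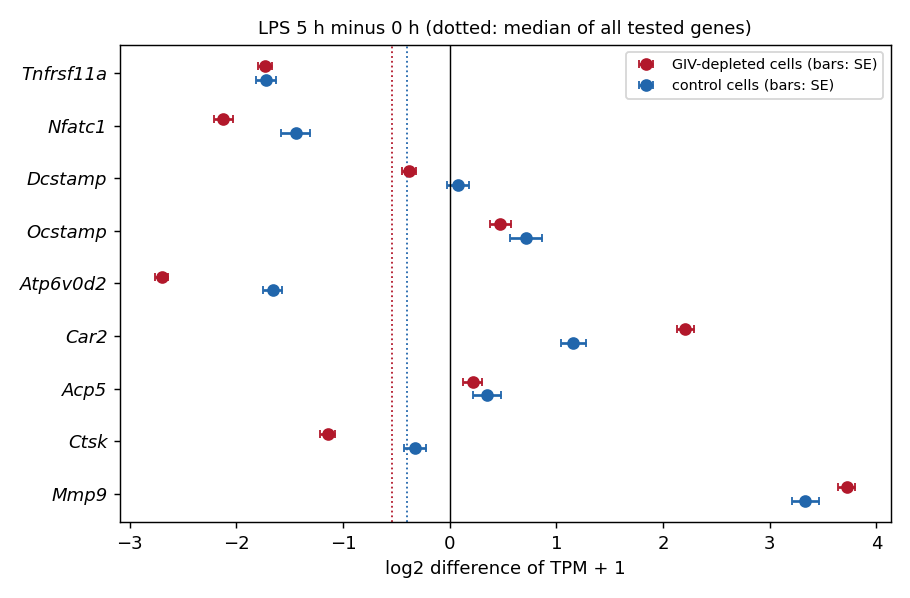
Log2 change of TPM + 1 after 5 h of LPS, 5 h minus 0 h, of the 9 tested osteoclast genes in shGIV cells (red) and shC cells (blue); bars are standard errors and dotted lines the medians of all tested genes. Mmp9, Car2 and Ocstamp lay above 0 in both lines and Tnfrsf11a, Nfatc1, Atp6v0d2 and Ctsk below 0, with Tnfrsf11a at −1.73 and −1.72 and Car2 (2.21 and 1.16) and Atp6v0d2 (−2.70 and −1.66) farthest apart between the lines.

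Taken by level, the genes changed places with LPS. In shGIV cells with LPS the highest mean TPM was that of Car2 (118 ± 4.12, SD, n = 3), then Dcstamp (77.0 ± 5.82), Ctsk (43.9 ± 2.23), Mmp9 (39.9 ± 3.90) and Acp5 (36.8 ± 3.10). Libraries overlapped between the neighbours Ctsk and Mmp9, and Mmp9 and Acp5. Below them came Nfatc1 (9.72 ± 0.862) and Tnfrsf11a (9.09 ± 0.391), which overlapped, then Atp6v0d2 (5.85 ± 0.222), Ocstamp (4.01 ± 0.0998) and Oscar. In the shC library with LPS the order was Ctsk, Dcstamp, Car2, Mmp9, Acp5, Tnfrsf11a, Nfatc1, Atp6v0d2, Ocstamp and Oscar. In shGIV cells without LPS, Dcstamp (100.6 ± 1.47) and Ctsk (98.3 ± 3.30) led with overlapping libraries, as did the next pair, Nfatc1 (45.7 ± 0.936) and Atp6v0d2 (43.6 ± 1.23). Tnfrsf11a (32.5 ± 0.418) and Acp5 (31.5 ± 2.98) overlapped as well, and Car2 (24.9 ± 2.71), Ocstamp (2.61 ± 0.267), Mmp9 (2.09 ± 0.0135) and Oscar followed. In shC cells without LPS the order was Ctsk (92.0 ± 9.63, SD, n = 2), Dcstamp (53.8 ± 3.93), Tnfrsf11a (32.7 ± 2.22), Nfatc1 (20.4 ± 2.69), Atp6v0d2 (15.0 ± 0.742), Car2 (13.8 ± 0.385), Acp5 (10.1 ± 0.345), Ocstamp, Mmp9 and Oscar, with no overlap between neighbours. Summed, the 10 genes held 325 to 364 TPM in shGIV cells with LPS, 214 TPM in shC cells with LPS, 379 to 385 TPM in shGIV cells without LPS and 235 to 245 TPM in shC cells without LPS.

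Across the 9 libraries, which fall into 4 groups, the profiles of the genes were compared by Pearson's r of log2(TPM + 1), as a description. Of all genes whose highest group mean was at least 3 on that scale, Atp6v0d2 was the most like Nfatc1 (r = 0.996), followed by Sgsm1 (0.995), Gm26880 (0.990), Uqcc2 (0.990) and Kbtbd11 (0.989). Atp6v0d2 and Nfatc1 were both chosen with their unstimulated levels in view, and their r is not independent of that choice. Kbtbd11 had mean levels of 2.85 TPM in shGIV and 0.843 TPM in shC cells with LPS, and 27.5 TPM in shGIV and 10.8 TPM in shC cells without LPS. The genes most like Acp5 were less close, with Rhof at 0.930, Cited2 at 0.903, Tmem98 at 0.868, H13 at 0.867 and Tmem127 at 0.865. Rhof averaged 26.7 TPM in shGIV and 15.2 TPM in shC cells with LPS, and 25.1 TPM in shGIV and 17.1 TPM in shC cells without LPS. Among the osteoclast genes Mmp9, Car2 and Ocstamp were alike (r = 0.915 to 0.956), and Acp5 had r = 0.098 with Atp6v0d2 and 0.106 with Nfatc1.

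The wider osteoclast pathway was read from 6 lists of 79 other genes, 71 of them tested. These lists too were chosen with earlier results of these data known. In stimulated cells 0 of these were called higher by limma in shGIV than in shC cells and 11 were called lower (32 at an unadjusted p below 0.05 in either direction; 2 higher and 10 lower under TMM scaling), against 0.89% and 4.38% of all genes. Csf1r, the receptor of the survival factor CSF1, fell to 43.0 TPM in shGIV cells, against 109 TPM in shC cells (log2 −1.32 ± 0.10, adjusted p = 0.00142), the 1 called gene of 15 in RANK and CSF1R signalling and also 1 of the 8 macrophage markers. Sirpa, the receptor of CD47 in fusion, fell to 64.6 TPM in shGIV cells, against 152 TPM in shC cells (−1.22 ± 0.11, adjusted p = 0.00268), and with Cd81 (−0.82 ± 0.15) and Cd44 (−0.50 ± 0.09) made up 3 of 8 attachment and fusion genes. Of 16 acid secretion and resorption genes 4 were lower, among them Plekhm1 (−0.81 ± 0.17), which guides lysosomes, the protease gene Ctsb (−0.77 ± 0.12) and Atp6v0d1 (−0.61 ± 0.09), the widely expressed counterpart of Atp6v0d2. The calcineurin gene Ppp3ca (−0.68 ± 0.09) was the 1 of 13 in co-stimulation and calcium, and Jun (−0.88 ± 0.16) and Tfec (−0.87 ± 0.17) were 2 of 13 transcription factors. When each of 8 libraries was left out in turn, 5 of the 11 calls held throughout, those of Csf1r, Sirpa, Ppp3ca, Ctsb and Atp6v0d1. Without replicate 3 of shGIV cells with LPS, Jun, Tfec, Plekhm1, Cd81 and Cd44 were not called. Other shGIV libraries whose loss ended a call of these 5 genes were replicate 2 with LPS (Jun, Tfec and Cd81), replicate 1 with LPS (Plekhm1), and, without LPS, replicate 1 (Tfec and Plekhm1), replicate 2 (Cd81 and Plekhm1) and replicate 3 (Jun, Cd44 and Plekhm1), with adjusted p of at most 0.0897.

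Without LPS 3 of the 71 genes were called between the lines, against 0.489% of all genes called higher and 0.729% called lower. Since the lists were chosen with earlier results of these data known, these calls are not independent of that choice. The protease gene Ctsl was lower, at 283, 282 and 286 TPM in shGIV cells, against 417 and 487 TPM in shC cells (log2 −0.67 ± 0.08, adjusted p = 0.0108). Slc9b2, which encodes a sodium and proton exchanger of osteoclasts, was higher, at 2.88, 3.16 and 2.02 TPM in shGIV cells and at 0.352 and 0.584 TPM in shC cells (1.32 ± 0.19, adjusted p = 0.0215). Fosl2, the AP-1 protein Fra-2, was at 16.7, 17.3 and 15.8 TPM in shGIV cells and at 10.5 and 11.6 TPM in shC cells (0.55 ± 0.10, adjusted p = 0.0488). These 3 lay apart between the lines in every library, yet each lost its call when certain libraries were left out. For Ctsl these were shGIV replicate 2 and shC replicate 3 without LPS (adjusted p up to 0.0547). For Slc9b2 they were shGIV replicates 1 and 2 and both shC libraries without LPS, and shGIV replicate 1 with LPS (up to 0.113). Slc9b2 reached the filter on low values only in unstimulated shGIV cells, where it is high, and had to differ. For Fosl2 they were all 5 libraries without LPS and shGIV replicates 1 and 3 with LPS (up to 0.2).

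For the change in shGIV cells minus that in shC cells, 0 of the 71 genes were called higher by limma and 2 lower (26 at an unadjusted p below 0.05), namely Csf1r (−1.02 ± 0.12, adjusted p = 0.0355) and Sirpa (−1.28 ± 0.14, adjusted p = 0.0281). Over all genes 0.0948% were called higher and 0.131% lower in that comparison. Neither call held when any of the 6 shGIV libraries was left out (adjusted p of at most 0.132 for Csf1r and 0.104 for Sirpa). In shGIV cells 30 of the 71 genes rose and 34 fell (43 and 20 under TMM scaling), and in shC cells 32 rose and 24 fell (41 and 16 under TMM scaling). Over all genes 15.8% rose and 59.7% fell in shGIV cells, and 14.8% rose and 44.1% fell in shC cells. Of the called genes, 2 that rose (Csf1 and Mmp14) and 3 that fell in shGIV cells, and the same 2 that rose and 2 that fell in shC cells, passed the filter on low values only through the libraries of the time at which they are high, and had to differ. Of 15 RANK and CSF1R signalling genes 7 rose and 6 fell in shGIV cells, and 7 rose and 5 fell in shC cells. Csf1 was at 22.1, 23.2 and 19.7 TPM in shGIV cells with LPS and at 0.0740 to 0.561 TPM in shGIV cells without LPS. In shC cells it was at 19.4 TPM with LPS and at 0.173 and 0.204 TPM without LPS. The receptor gene Csf1r fell in shGIV cells (log2 −3.21 ± 0.07, adjusted p = 1.26e-08). The kinase gene Src rose in shGIV (2.99 ± 0.11) and in shC cells (3.49 ± 0.17). Of 13 co-stimulation and calcium genes 4 rose and 8 fell in shGIV cells, and 4 rose and 7 fell in shC cells. The adaptor gene Lcp2 rose (2.29 ± 0.08 in shGIV and 2.89 ± 0.11 in shC cells), and the receptor gene Trem2 fell (−1.91 ± 0.11 in shGIV and −1.47 ± 0.16 in shC cells).

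Of 13 transcription factors 6 rose and 5 fell in shGIV cells, and 8 rose and 5 fell in shC cells. Myc rose (log2 2.72 ± 0.08 in shGIV and 3.37 ± 0.12 in shC cells), and Tfeb, a regulator of lysosome genes, fell (−3.09 ± 0.13 in shGIV and −2.96 ± 0.19 in shC cells). Of 6 repressors 4 rose and 1 fell in shGIV cells, and 3 rose and 0 fell by limma in shC cells. Id1 rose in shGIV (2.72 ± 0.13) and in shC cells (2.01 ± 0.20). Irf8, which restrains osteoclast formation, rose in shGIV (1.38 ± 0.10) and in shC cells (1.03 ± 0.15). Id2 was called lower in shGIV cells (−0.59 ± 0.10) but not under TMM scaling, where its change was 0.042 (adjusted p = 0.635), nor under quantile normalization (−0.052, adjusted p = 0.553). Of 16 acid and resorption genes 6 rose and 9 fell in shGIV cells, and 7 rose and 3 fell in shC cells. The membrane protease gene Mmp14, tested through its stimulated libraries, changed by 4.61 ± 0.19 in shGIV and 3.99 ± 0.28 in shC cells, and Plekhm1 fell (−2.39 ± 0.12 in shGIV and −1.51 ± 0.18 in shC cells). Of 8 attachment and fusion genes 3 rose and 5 fell in shGIV cells, and 3 rose and 4 fell in shC cells, with Cd47 higher (1.81 ± 0.08 in shGIV and 1.72 ± 0.12 in shC cells) and Cd81 lower (−2.05 ± 0.10 in shGIV and −1.68 ± 0.16 in shC cells). The integrin gene Itgb3 and the calcitonin receptor gene Calcr, both marks of mature osteoclasts, reached at most 0.0608 and 0.0304 TPM and were not tested. Camk4, Prdm1 and Zeb1 were also below the filter.

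**Figure D4:**
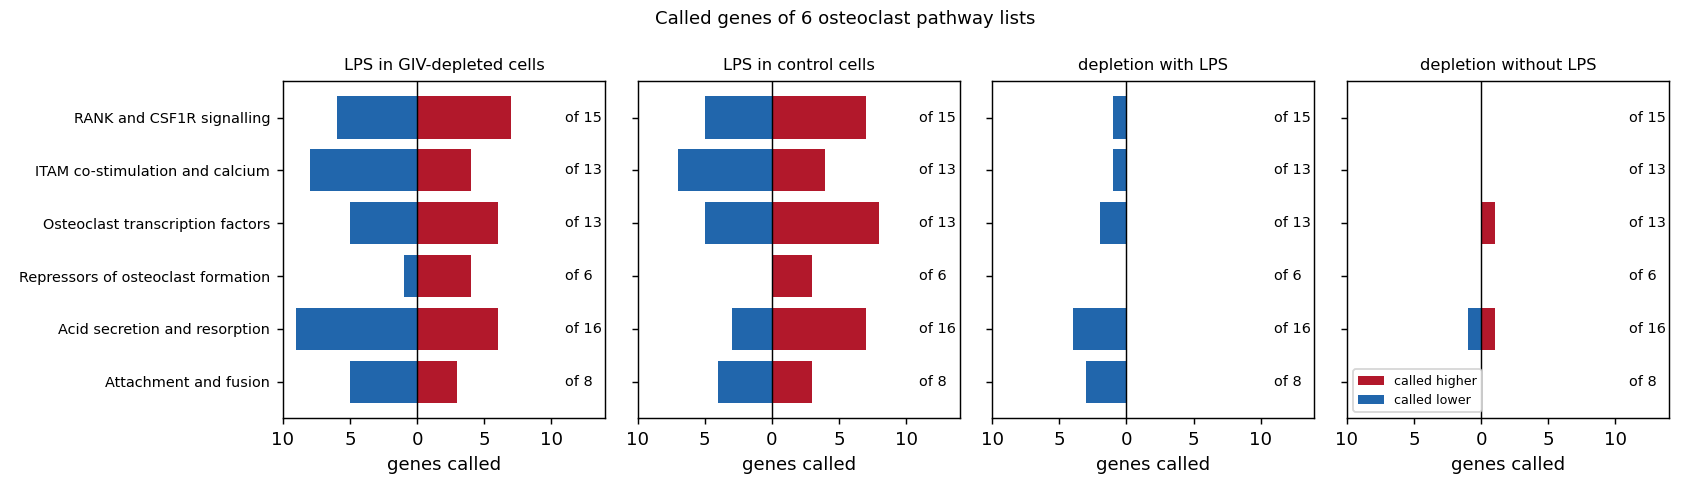
Number of genes called higher (red, to the right) or lower (blue, to the left) in 6 osteoclast pathway lists, with the number tested, for LPS in shGIV cells, LPS in shC cells, shGIV against shC with LPS and shGIV against shC without LPS. LPS moved genes of every list in both directions except the repressors in shC cells, and the 11 genes called between the lines with LPS were all lower in shGIV cells.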

How the data were processed

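Stranded, ribosome-depleted total RNA of RAW cells was read in pairs, per the labels' protocols. The authors deposited log2(TPM + 1) values per gene for 10 libraries, made with kallisto 0.45.0 on GRCm38, per the submitters' processing notes. The annotation release is not given in the sources used here. TPM adds up to 1000000 per library, so the depth of each library and its counting precision are unknown. No 2 of the 45 library pairs were identical. Listed symbols held by 2 rows of equal values (2 symbols) were counted once.

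The osteoclast genes, the 6 pathway lists and the marker lists were chosen with earlier results of these data known, as was leaving out replicate 2 of the control cells without LPS. One item of the pathway lists is not reported here and is left out of their counts. The test covered the 13711 genes that reached a log2(TPM + 1) of 1 in 2 or more libraries, with limma 3.58.1 in R 4.3.3, in 1 model of the 4 groups with a mean-variance trend and 5 residual degrees of freedom. P-values were adjusted by Benjamini-Hochberg over all tested genes within each comparison, with a threshold of 0.05. Errors after ± on the log2 scale are standard errors of that fit. Named are the 10 genes, Ccdc88a, the 5 genes most like Acp5 and Nfatc1, and marker genes by their summed level. For each pathway list and comparison, up to 3 called genes with the largest change were picked. Not all of those picked are named, and some are given in 1 line only. The fit was tested on simulated data. Alternatives were all 10 libraries, a replicate block, testing all genes or those reaching a log2 value of 3, a pseudocount of 0.1, TMM scaling, quantile normalization, no variance trend, only the groups compared, and leaving out each library in turn. TMM scaling used a trimmed mean of log ratios between libraries (trims of 0.3 and 0.05), taken over TPM of the tested genes without precision weights, since those need read counts. Gene positions came from GENCODE M21 (GRCm38). Summaries used pandas 2.3.3 and plots matplotlib 3.10.9.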

Additional observations from a re-analysis of the deposited data

Results flagged for a closer look

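The estimates of the change of Dcstamp under LPS had opposite signs in the lines, and the change in shC cells did not pass the test (log2 0.07 ± 0.10, limma adjusted p = 0.569). All 3 shGIV libraries with LPS (71.0 to 82.6 TPM) were below all shGIV libraries without LPS (99.1 to 102 TPM), while the shC library with LPS (56.578 TPM) was above both shC libraries without LPS (51.0 and 56.564 TPM), the higher of them by 0.014 TPM. The difference of the changes was −0.46 on the log2 scale. It was not tested, because Dcstamp was chosen with the unstimulated levels in view. Under TMM scaling Dcstamp was above 0 in both lines (0.28 in shGIV and 0.56 in shC cells).

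The fall under LPS of 2 genes of the wider pathway was larger in shGIV than in shC cells by limma's test of the difference. Csf1r was at 42.8, 44.6 and 41.8 TPM with LPS and at 396, 414 and 408 TPM without LPS in shGIV cells, and at 109 TPM with LPS and 459 and 541 TPM without LPS in shC cells. The difference of its changes was −1.02 ± 0.12 (adjusted p = 0.0355), with a range of 0.0106 to 0.221 over the other settings of the 9-library fit. Sirpa was at 63.6, 66.8 and 63.3 TPM with LPS and at 322, 337 and 366 TPM without LPS in shGIV cells, and at 152 TPM with LPS and 301 and 354 TPM without LPS in shC cells. The difference of its changes was −1.28 ± 0.14 (adjusted p = 0.0281), with a range of 0.00937 to 0.195. Neither was called when any of the 6 shGIV libraries was left out. Over all genes 0.0948% were called higher and 0.131% lower in this comparison.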

How the results depend on the processing

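Calls fell in every comparison when the library that stands apart entered the fit. For shGIV against shC and for the difference of changes, other settings given below also lowered calls. With all 10 libraries, calls of the 9 osteoclast genes numbered 4 for LPS in shGIV cells, 1 for LPS in shC cells and 0 for shGIV against shC with LPS, against 8, 7 and 6 with 9 libraries. Calls of the wider pathway then numbered 10, 4, 0, 0 without LPS and 0 for the difference of changes, against 64, 56, 11, 3 and 2. Calls over all genes were 2236, 481, 0, 0 and 0 (221, 408 and 226 genes at an unadjusted limma p below 0.05 where 0 were called), against 10349, 8075, 722, 167 and 31. The median of the 9 genes moved to 1.54 without LPS and −1.08 for the difference.

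Only the groups compared gave 4 osteoclast genes for LPS in shC cells and 3 for shGIV against shC with LPS, 2 and 0 pathway genes with and without LPS (30 and 22 at an unadjusted p below 0.05), and 69 and 47 genes in all. For the difference of changes this fit could not be made. Replicate numbers are the set numbers of the labels, and the main fit did not treat them as pairs. Same-numbered shGIV libraries deviated together weakly (r = 0.0617 to 0.0970), and the others had r of −0.0707 to −0.00424. Each library thus correlated best with its own number, and a pairing is not excluded. The replicate block gave 3 osteoclast genes with LPS, 2, 1 and 0 pathway genes (20 at an unadjusted p below 0.05) and 83, 58 and 0 genes (1820 at an unadjusted p below 0.05) for shGIV against shC with LPS, without LPS and the difference.

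TMM scaling gave 9 pathway genes without LPS, 253 genes without LPS, 82 for the difference and a median difference of −0.069. Quantile normalization gave 9 and 306 without LPS. For the difference, no filter gave 360 genes, the stricter filter (which drops Ocstamp) 73, no variance trend 1 pathway gene, and a pseudocount of 0.1 a median of −0.37.

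Leaving out each library in turn gave 8 to 9, 6 to 8 and 4 to 6 osteoclast genes, 62 to 66, 54 to 55, 5 to 15, 0 to 3 and 0 to 2 pathway genes, and 9844 to 10407, 7333 to 8022, 325 to 953, 58 to 118 and 0 to 21 genes, in the order above, with medians of 0.82 to 0.89 and −0.32 to −0.16. The shC library with LPS is the only library of its group with levels and could not be left out.

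Signs turned for Dcstamp (LPS in shGIV cells, TMM 0.28; LPS in shC cells, replicate block −0.018), Ctsk (LPS in shC cells, TMM 0.16 and 10 libraries 1.02; without LPS, −0.0078 to 0.20 over the libraries left out, negative without shC replicate 1) and Tnfrsf11a with LPS (TMM 0.12, quantile 0.13, replicate block 0.0068; −0.049 to 0.0022 over the libraries left out, positive without shGIV replicate 3). For the difference they turned for Acp5 (TMM 0.062, replicate block 0.056), Mmp9 (pseudocount −0.18), Car2 (10 libraries, −0.017) and Tnfrsf11a (TMM 0.15, quantile 0.17, replicate block 0.025; −0.078 to 0.056 over the libraries left out). Without LPS, Tnfrsf11a also turned (10 libraries 0.43; −0.073 to 0.061 over the libraries left out). Of the further values per gene, those of Tnfrsf11a for the difference and without LPS included, 633 kept their call or stayed within the spread and 104 moved or changed their call. The cause was not tested, and the depth of each library is unknown.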
